A study of Caenorhabditis elegans with 8 samples.

Results

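The fatty acid desaturases fat-1 to fat-7 of Caenorhabditis elegans were followed in intestines dissected from fed and fasted adults. The members were the rows of the count table whose WormBase identifiers carry these 7 symbols, 7 of 20392 genes, and all 7 had enough counts to be tested. They were split by the reaction they catalyse into the delta-9 desaturases fat-5, fat-6 and fat-7 and the polyunsaturated desaturases fat-1, fat-2, fat-3 and fat-4. All animals were N2 (Bristol), the wild-type laboratory strain, grown on OP50 bacteria to day 1 of adulthood. The 4 fed libraries came from animals dissected after a wash, and the 4 fasted libraries from animals that had spent 12 h without food in M9 buffer. Each library was made from a pool of dissected intestines. The fast, the hours in liquid and the added age of the fasted animals came together and cannot be told apart, although both groups carry a time of 12 h in the labels.

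Desaturases place double bonds in fatty acyl chains. In C. elegans, the delta-9 enzymes make the monounsaturated fatty acids, FAT-5 acting mainly on palmitate and FAT-6 and FAT-7 on stearate to give oleate. FAT-2, a delta-12 desaturase, turns oleate into linoleate, FAT-1 is the omega-3 desaturase, and FAT-3 and FAT-4, a delta-6 and a delta-5 desaturase, act on the later steps towards the C20 polyunsaturated fatty acids. The intestine is the main fat-storing tissue of the worm, and a close pair of paralogs, fat-6 and fat-7, serves the same step.

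The libraries held 20964161 to 26372847 counts in the fed group and 25310202 to 33846215 in the fasted group. Vitellogenins, the yolk proteins, took 71.8 to 73.2% of the counts in fed and 66.5 to 67.8% in fasted libraries. All 10 intestine markers had counts in every library, and their summed level was 7851 to 8701 RPM (reads per 1000000 counts) in fed and 3096 to 4184 RPM in fasted libraries. The protease gene cpr-1 made up most of this sum (mean 6178 RPM in fed and 2301 RPM in fasted libraries). By total counts 5 of the 10 markers were called lower, and elt-2, elt-7 and ges-1 were called higher (log2 fold changes 1.57, 1.03 and 0.95). Reads of the body wall muscle markers came to 936, 59.1, 21.8 and 1312 RPM in fasted libraries 1 to 4, against 9.64 to 12.9 RPM in the fed group, and the defining myosin myo-3 was at 0 counts in all fed libraries and in fasted library 3. Pharynx markers followed the same libraries (0.201 to 0.531 RPM in fed, and 185, 1.98, 0.766 and 360 RPM in fasted libraries 1 to 4). Germline and oocyte markers summed to 1.90 to 6.32 RPM in fed and to 108, 401, 31.9 and 35.1 RPM in fasted libraries 1 to 4. Of these fasted sums glh-1 alone gave 65.1, 46.3, 28.4 and 27.9 RPM, most of the sum in libraries 3 and 4. Neuron markers summed to 13.4 to 15.1 RPM in fed and 59.7 to 117 RPM in fasted libraries (of which ric-19 alone gave 49.95, 60.9, 52.6 and 52.6 RPM in fasted libraries 1 to 4). Hypodermis markers came to 0.764 to 3.77 RPM and 1.63 to 8.54 RPM, and sperm markers to under 1 RPM in both. Muscle and pharynx markers were thus highest in fasted libraries 1 and 4 and germline and oocyte markers in fasted library 2, and the part of these markers in the results was not tested. Without fasted library 2 all 7 members kept their calls by total counts. Without fasted libraries 1 and 4 all 7 calls by total counts given below held, with log2 fold changes, fasted over fed, of -0.82 for fat-1, 0.62 for fat-2, 1.65 for fat-3, 0.85 for fat-4, -4.99 for fat-5, -1.39 for fat-6 and -2.93 for fat-7.

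The 3 delta-9 desaturases and the omega-3 desaturase fat-1 fell in fasted intestines, and fat-2, fat-3 and fat-4 were higher as a share of all counts. A gene was called where its fold change passed 1.5 at an edgeR false discovery rate (FDR) under 0.01. By total counts, 4 of the 7 members were called lower, against 9.97% of the 7379 genes tested, and 3 of 7 were called higher, against 52.9%. In all 7 members the 4 fed and the 4 fasted levels did not overlap, with 3 members higher and 4 lower in fasted intestines. Among all genes tested, 58.5% did not overlap and were higher, and 11.1% did not overlap and were lower. With only 7 members, 3 of 7 called higher is near the background share, and 4 of 7 called lower is above it. In bulk tissue, fewer cells of a type in the pool and less RNA per cell cannot be told apart.

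**Figure D1:**
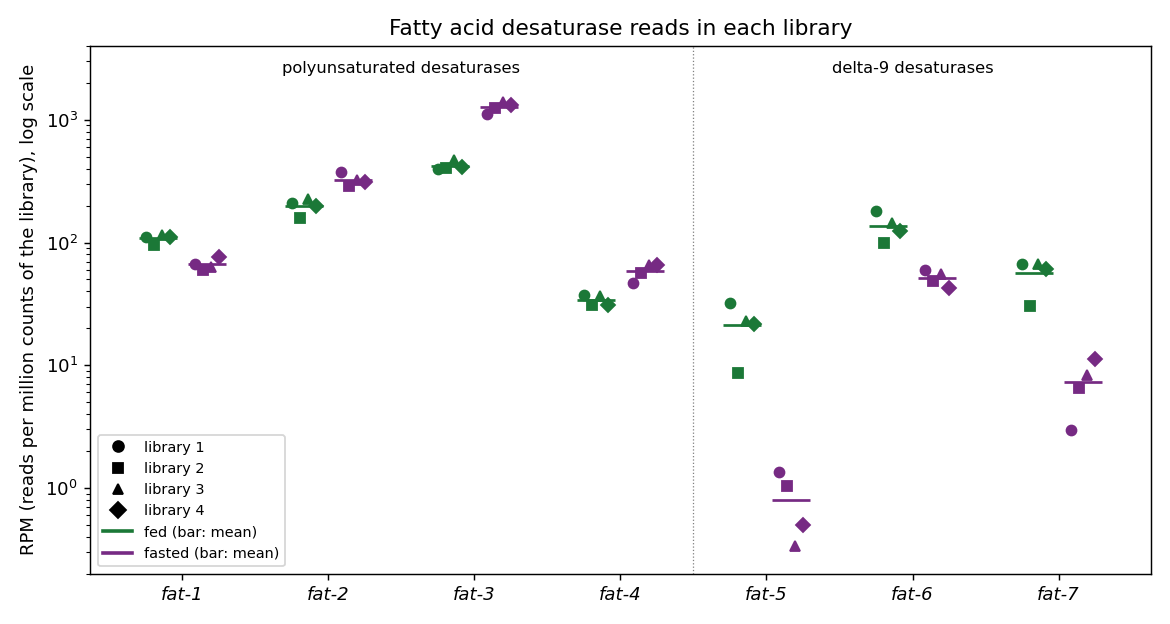
Reads of each desaturase in each library, in RPM on a log axis. Each symbol is 1 of the 4 fed (green) or 4 fasted (purple) libraries and the bar is the group mean. The groups did not overlap for any of the 7 genes, and fat-5 and fat-7 on the right spread more between libraries than the polyunsaturated desaturases on the left.

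Of the delta-9 group, fat-5, the palmitoyl-CoA desaturase, fell furthest. It lies on chromosome V (17725004 to 17726818, plus strand, WBcel235). Fed libraries 1 to 4 held 845, 182, 566 and 573 counts, or 32.1, 8.68, 22.8 and 21.7 RPM. Fasted libraries held 41, 26, 10 and 17 counts, or 1.35, 1.03, 0.333 and 0.502 RPM. Even the lowest fed library, number 2, stood well above the highest fasted one. The mean level was 26.6-fold lower in fasted intestines, the log2 fold change was -4.73 ± 0.51 (SE, n = 4 and 4) and the edgeR FDR was 1.35e-05. Of all genes tested, 65 had a lower log2 fold change. An antisense gene, twk-42, overlaps the fat-5 locus and had 0 to 4 counts in fed and 0 to 23 in fasted libraries. Reads of the overlapping genes cannot be told apart unless strand was kept.

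The stearoyl-CoA desaturase fat-7 (chromosome V, 7151353 to 7153146, minus strand) had 66.3, 30.5, 67.0 and 61.3 RPM in fed libraries 1 to 4 and 2.96, 6.48, 8.33 and 11.2 RPM in fasted libraries 1 to 4. Fed library 2 was again the low one. Relative to their mean, the fasted libraries differed among themselves by more than those of any polyunsaturated desaturase. The mean was 7.78-fold lower in fasted intestines (log2 fold change -2.96 ± 0.39, SE, edgeR FDR 6.09e-05).

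Its paralog fat-6 (chromosome IV, 11913692 to 11915687, minus strand) had 179, 99.9, 143 and 125 RPM in fed and 60.2, 48.8, 55.5 and 42.9 RPM in fasted libraries 1 to 4. It kept the most reads of the delta-9 genes after the fast, at a mean 2.64-fold below that of fed intestines (log2 fold change -1.40 ± 0.19, SE, edgeR FDR 7.23e-05). As only uniquely mapped reads were counted, reads that match both paralogs are missing from both.

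Among the polyunsaturated desaturases, fat-2 (chromosome IV, 13323873 to 13326395, plus strand), which makes linoleate from oleate, had 209, 160, 226 and 198 RPM in fed libraries 1 to 4. In fasted libraries 1 to 4 it had 372, 287, 321 and 310 RPM. All fasted values were higher, and the log2 fold change was 0.70 ± 0.14 (SE, edgeR FDR 0.000841). This lies below the median of all genes tested (1.23), so that fat-2 rose less than the typical gene when all counts are the scale.

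The omega-3 desaturase fat-1 (chromosome IV, 13315644 to 13318811, plus strand) went the other way from its neighbour fat-2, which starts 5061 bp downstream on the same strand with 1 pseudogene between them. Fed libraries 1 to 4 had 111, 96.3, 114.7 and 111 RPM of fat-1, and fasted libraries had 66.9, 59.4, 63.1 and 75.5 RPM. No fasted value reached the lowest fed one, and the log2 fold change was -0.71 ± 0.12 (SE, edgeR FDR 0.000459). Within each library the fat-2 to fat-1 ratio of counts, which needs no library size, rose from 1.83 ± 0.136 (SD, n = 4) in fed to 4.90 ± 0.612 in fasted intestines, without overlap.

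The delta-6 desaturase fat-3 (chromosome IV, 9803023 to 9806119, plus strand) had the most reads of the 7 genes and the greatest log2 fold change upwards. It had 398, 403, 473 and 414 RPM in fed and 1112, 1250, 1393 and 1325 RPM in fasted libraries 1 to 4. The mean was 3.01-fold higher in fasted intestines (log2 fold change 1.59 ± 0.11, SE, edgeR FDR 6.75e-07), and fat-3 was the only member above the median of all genes, by 0.36 on the log2 scale.

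The delta-5 desaturase fat-4 (chromosome IV, 9799429 to 9802226, plus strand) lies 796 bp upstream of fat-3 on the same strand, with no annotated gene between them. It had 37.4, 30.7, 36.5 and 30.7 RPM in fed libraries 1 to 4 and 46.9, 56.9, 65.1 and 66.1 RPM in fasted ones. Every fasted value was above every fed one, with fasted library 1 the nearest to the fed range (log2 fold change 0.80 ± 0.15, SE, edgeR FDR 0.000778). The fat-3 to fat-4 ratio of counts was 10.6, 13.1, 12.97 and 13.5 in fed and 23.7, 21.98, 21.4 and 20.1 in fasted libraries 1 to 4, so that these neighbours also moved by different amounts.

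The direction of fat-2 and fat-4 depended on the scale. The median gene was 1.23 higher (log2) in fasted libraries by total counts, 0.96 higher by total counts without the vitellogenins and 0.16 higher with TMM factors, which centre most genes. With TMM factors the log2 fold change of fat-2 turned to -0.37 (edgeR FDR 0.0265) and that of fat-4 to -0.27 (edgeR FDR 0.150), and fat-3 stayed higher at 0.52 (edgeR FDR 0.00379), under the fold threshold. The members called were then 4 lower and 0 higher, against 21.5% and 19.6% of all genes tested. Without the vitellogenins in the total, 4 were lower and 1, fat-3, was higher, against 12.1% and 44.7%. The 4 lower members, fat-1, fat-5, fat-6 and fat-7, were called lower under all 3 scalings, and their fall was greater with TMM factors (-1.78, -5.80, -2.46 and -4.01 on the log2 scale).

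**Figure D2:**
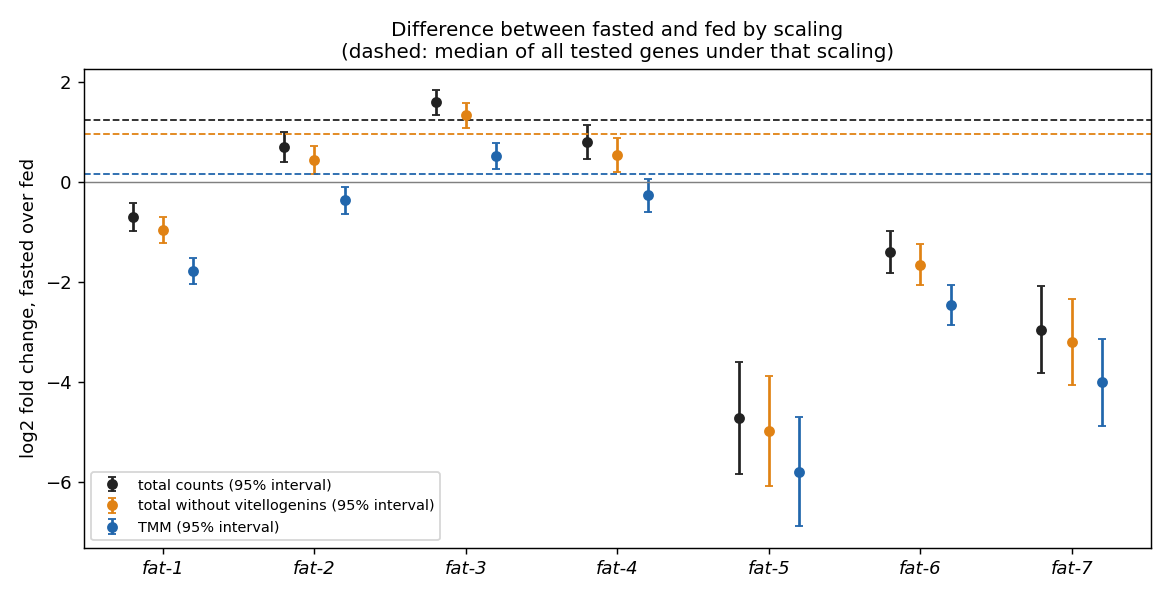
Log2 fold change of each desaturase, fasted over fed (n = 4 and 4), with its 95% interval under each of the 3 scalings. Dashed lines mark the median of all tested genes under the same scaling (1.23, 0.96 and 0.16). The 4 lower genes lie below 0 under each scaling, while fat-2 and fat-4 change sign with TMM factors.

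Ratios within a library do not depend on the scaling and showed the same split between the groups of enzymes. The summed reads per kb of the delta-9 genes over those of the polyunsaturated desaturases were 0.255, 0.137, 0.1999 and 0.203 in fed libraries 1 to 4. They were 0.0220, 0.0206, 0.0214 and 0.0206 in fasted libraries 1 to 4, a 9.40-fold lower mean. By WBcel235 exon lengths the ratios were 0.451, 0.249, 0.337 and 0.339 in fed and 0.0495, 0.0424, 0.0433 and 0.0383 in fasted libraries 1 to 4. The groups did not overlap by either length. Of the 21 pairs of members, 19 had ratios that did not overlap between fed and fasted intestines. These included all 12 pairs of a delta-9 gene and a polyunsaturated desaturase, each with the delta-9 gene relatively lower after the fast. The pairs that overlapped were fat-2 with fat-4 and fat-5 with fat-7. No such share was computed for pairs of other genes, so these counts are not read as a trait of the family. Among single genes tested, 58.5% did not overlap and were higher in fasted intestines, and 11.1% did not overlap and were lower.

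The make-up of the family shifted towards fat-3. In reads per kb, the delta-9 genes made up 16.5 ± 3.40% (SD, n = 4) of the family in fed and 2.07 ± 0.0638% in fasted intestines by the widths in the table, and 25.4 ± 4.56% and 4.16 ± 0.426% by the exon lengths of the WBcel235 annotation, which differ for fat-5 and fat-6. The share of fat-3 was 44.1 ± 3.84% and 70.1 ± 3.11%, and that of fat-1 was 12.1 ± 0.522% and 3.93 ± 0.410%, both without overlap. The shares of fat-2 (24.0 ± 0.874% and 20.9 ± 3.13%) and fat-4 (3.32 ± 0.246% and 3.05 ± 0.316%) overlapped.

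Of the paralogs fat-6 and fat-7, fat-7 fell by the larger fold, so that its ratio to fat-6 was lower in fasted intestines. The fat-7 to fat-6 ratio of counts was 0.370, 0.305, 0.468 and 0.492 in fed and 0.0491, 0.133, 0.150 and 0.260 in fasted libraries 1 to 4. The groups did not overlap, but the highest fasted value, of library 4, was near the lowest fed one, of library 2. Fasted library 1 was lowest in fat-7 and highest in fat-5 and fat-6 among fasted libraries.

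**Figure D3:**
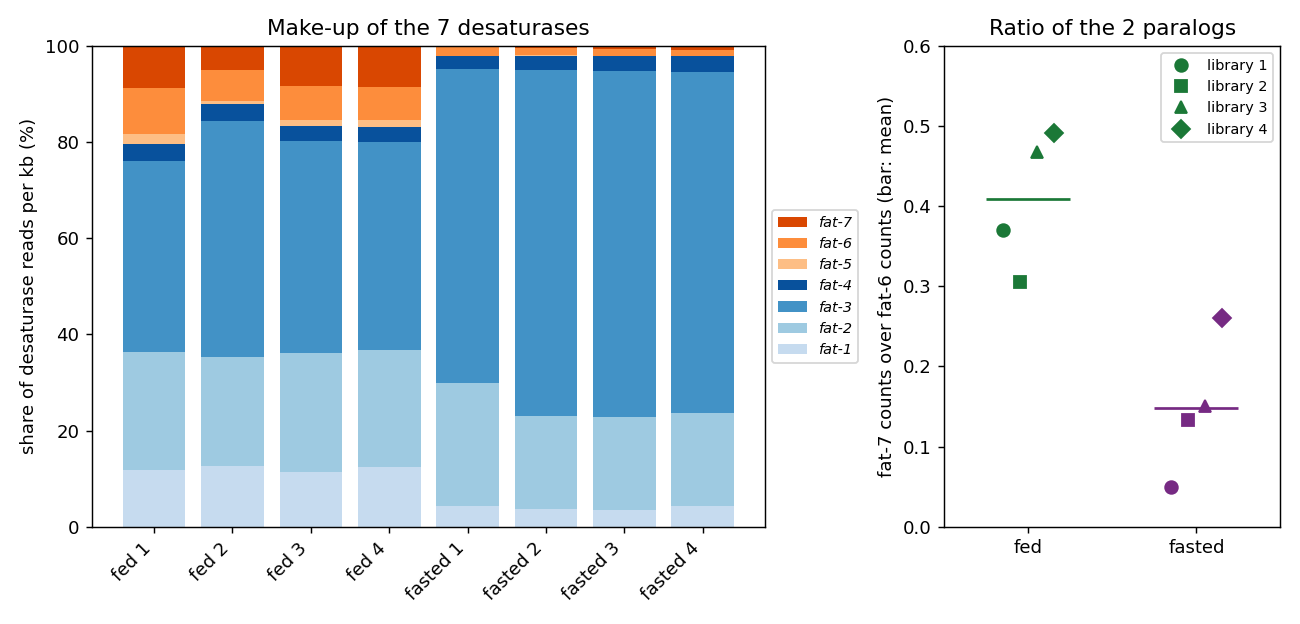
Left, share of each desaturase in the summed reads per kb of the 7 genes, in percent, for each library. Right, fat-7 counts over fat-6 counts per library, with the mean as a bar. The delta-9 share (orange) drops from 16.5% to 2.07% on average by the table's widths, as drawn (25.4% to 4.16% by WBcel235 exon lengths), and the paralog ratio is lower in every fasted library than in every fed one.

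Between genes, levels were compared as reads per kb and 1000000 counts (RPKM), using the gene width given in the table. In fed intestines the order was fat-3 (283 ± 23.3, SD), fat-2 (155 ± 22.1), fat-1 (77.7 ± 5.79), fat-7 (50.1 ± 15.5), fat-6 (48.3 ± 11.8), fat-4 (21.4 ± 2.29) and fat-5 (9.13 ± 4.12). The ranges of fat-7 and fat-6 overlapped, and no other neighbours in this order did. In fasted intestines the order was fat-3 (852 ± 80.8), fat-2 (253 ± 28.3), fat-1 (47.6 ± 4.95), fat-4 (37.1 ± 5.65), fat-6 (18.3 ± 2.68), fat-7 (6.44 ± 3.07) and fat-5 (0.344 ± 0.2004), with no overlap between neighbours. By these widths fat-3, fat-2 and fat-1 led in both groups, and fat-4 stood above fat-6 and fat-7 in fasted intestines only.

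The place of fat-6 depends on its length. The table gives fat-6 a width of 2829 bp and fat-5 one of 2335 bp, while the exons of the WBcel235 annotation cover 1166 and 1104 bp. With those exon lengths the mean fat-6 level was 117 RPKM in fed intestines, above fat-1 and fat-7, and 44.5 RPKM in fasted ones, where it stayed above fat-4 (38.1 RPKM). By exon length fat-4 therefore passed fat-7 but not fat-6. The delta-9 to polyunsaturated ratio was then 7.93-fold lower in fasted intestines in place of 9.40-fold.

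Replicates differed most in fat-5 and fat-7, while fat-6 varied more than the polyunsaturated desaturases in fed libraries and about as much as fat-4 in fasted ones. The coefficient of variation in RPM was 45.1% in fed and 58.3% in fasted libraries for fat-5, 30.8% and 47.6% for fat-7, and 24.5% and 14.6% for fat-6. For fat-1 to fat-4 it lay between 7.45% and 15.2%, below the medians of all genes that averaged 50 counts or more (22.3% in fed and 18.4% in fasted libraries). Fed library 2 was the lowest of its group for all 3 delta-9 genes and held 40.7% of the mean fed level of fat-5, 54.2% of fat-7 and 73.1% of fat-6. In the same library fat-1 stood at 89.2% of its fed mean, fat-2 at 80.5%, fat-3 at 95.5% and fat-4 at 90.8%, and it also had the lowest total count of the series. Without it, each of the 7 members kept its call.

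Of the 34 other genes of the pathway followed here, 28 could be tested. By total counts 10 were lower and 7 higher, against 9.97% and 52.9% of all genes tested, and their median log2 fold change was -0.21 against 1.23 for all genes. With TMM factors 18 were lower and 3 higher, against 21.5% and 19.6%.

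The elongases, which lengthen fatty acyl chains, mostly fell with the delta-9 genes. Of 9 listed, 5 were tested and 4 were called lower by total counts (9.97% of all genes tested were), with a list median of -2.80. The most abundant, elo-5, which works in the synthesis of branched-chain fatty acids, had 758, 922, 816 and 802 RPM in fed and 63.8, 48.5, 89.3 and 54.98 RPM in fasted libraries 1 to 4, a 12.9-fold difference of means without overlap (log2 fold change -3.68 ± 0.20, SE, edgeR FDR 1.24e-07). Also lower were elo-6, of the same branched-chain pathway (log2 fold change -2.999), elo-2, which extends palmitate (-2.80), and elo-1, an elongase of polyunsaturated fatty acids (-1.80). elo-3 was near 1 RPM in both groups and was not called (-0.21, edgeR FDR 0.624). Unlike fat-5 and fat-7, elo-5, elo-2 and elo-6 were highest of the fed group in fed library 2. elo-1 was lowest there, at 45.2 RPM against 55.2 to 61.0 RPM in the other fed libraries.

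All 3 tested partners of the elongation cycle were called lower by total counts, against 9.97% of all genes tested. They were let-767, a ketoacyl-CoA reductase (-1.997 on the log2 scale), hpo-8, related to hydroxyacyl-CoA dehydratases (-1.55), and art-1, related to enoyl-CoA reductases (-1.40). Desaturases draw electrons through cytochrome b5. Here 1 of 3 tested genes was called lower and 1 higher by total counts, against 9.97% and 52.9% of all genes tested. hpo-19, a cytochrome b5 reductase, dropped from 136 ± 14.1 to 27.9 ± 2.89 RPM (SD), and cytb-5.2, a cytochrome b5, rose from 6.41 ± 3.04 to 37.6 ± 13.2 RPM. The 4 fasted values of cytb-5.2, 51.1, 22.9, 30.4 and 46.0 RPM in libraries 1 to 4, were all above the fed ones. Its call was lost with TMM factors when fasted libraries 1 and 4 were left out. cytb-5.1 was not called (log2 fold change -0.08). The related sphingolipid desaturase genes ttm-5 and F33D4.4 were both called higher by total counts (1.64 and 0.91), as were 52.9% of all genes tested. Their median of 1.27 was near that of all genes, 1.23. Neither was called with TMM factors, where F33D4.4 had a log2 fold change of -0.16.

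Upstream of the desaturases, 4 genes of the list for fatty acid synthesis were tested. By total counts 1 was called lower and 0 higher, against 9.97% and 52.9% of all genes tested. With TMM factors 3 were lower and 0 higher, against 21.5% and 19.6%. These 3 include mlcd-1, a malonyl-CoA decarboxylase and not a synthesis enzyme (log2 fold change -1.68, edgeR FDR 0.00758). Its means were only 0.798 RPM in fed and 0.525 RPM in fasted libraries. acly-1, an ATP citrate lyase, was lower under both scalings (27.7 ± 6.58 RPM in fed and 5.31 ± 2.08 in fasted libraries, SD). pod-2, the acetyl-CoA carboxylase, was high in both groups at 443 ± 57.2 and 381 ± 50.5 RPM and was not called (edgeR FDR 0.155) by total counts, but was lower with TMM factors (-1.29). fasn-1, the fatty acid synthase, had a mean of only 0.348 RPM in fed and 3.43 RPM in fasted libraries, with no count in 1 library of each group, and was not called.

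Of 11 genes known to act on desaturase expression or on membrane fluidity, 4 were higher and 1 lower by total counts, and 2 were higher and 7 lower with TMM factors. By total counts 52.9% of all genes tested were higher and 9.97% lower, so that 1 of 11 lower is near the background share and 4 of 11 higher is below it. The shares with TMM factors were 19.6% and 21.5%. The lower one under both was nhr-49, the nuclear receptor that promotes fat-7 and fat-5 expression. It had 109, 80.9, 117 and 90.6 RPM in fed and 36.9, 37.1, 28.7 and 27.9 RPM in fasted libraries 1 to 4, with no overlap (log2 fold change -1.60 ± 0.17, SE, edgeR FDR 1.13e-05). Its coactivator mdt-15, a Mediator subunit, was higher instead, at 21.7, 15.7, 18.8 and 15.1 RPM in fed and 70.0, 68.2, 71.8 and 71.4 RPM in fasted libraries 1 to 4 (log2 fold change 1.98 ± 0.15, SE, edgeR FDR 1.29e-06), and kept this call with TMM factors (0.91). sbp-1, the SREBP factor, had 13.3 ± 1.46 and 15.8 ± 3.49 RPM (SD), with overlap, and was not called by total counts. Among the others called higher, iglr-2, which acts with paqr-2 in membrane fluidity, kept its call with TMM factors, while scp-1, the SCAP homologue, and paqr-1 did not.

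**Figure D4:**
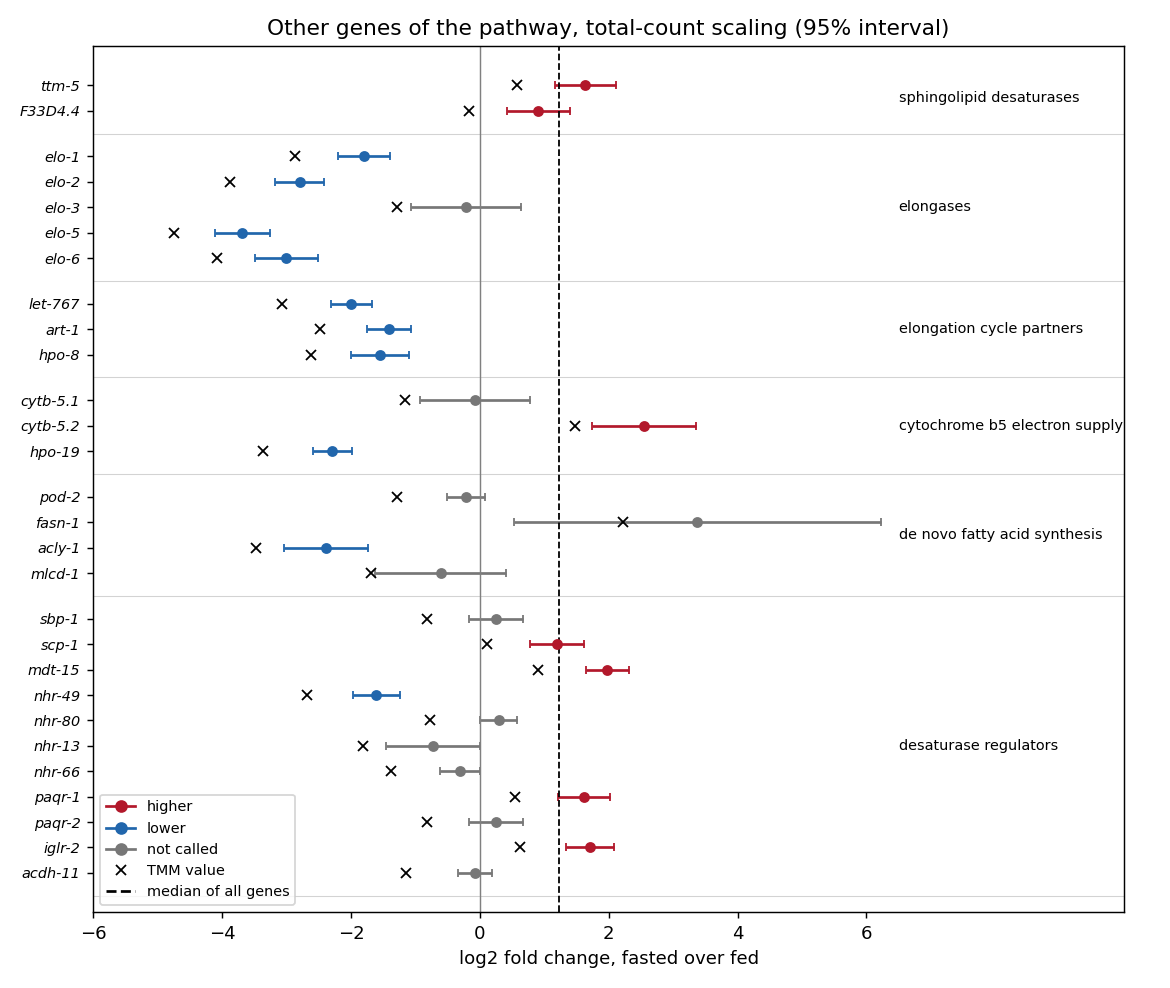
Log2 fold change, fasted over fed, of the 28 tested pathway genes by list, with the 95% interval (total counts, n = 4 and 4). Crosses are the values with TMM factors and the dashed line is the median of all tested genes, 1.23. The called elongases and all 3 elongation partners lie below 0 under both scalings.

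The genes whose log2 levels followed each member most closely over the 8 libraries were sought among the 4883 genes that averaged 50 counts or more. With 2 groups this far apart such correlations mostly reflect the group difference, and they share the library sizes, so that they are given as a description. For fat-7 the nearest was F10D2.10 (Pearson r = 0.999 under total counts and TMM scaling), the gene next to it on chromosome V (7154503 to 7156179, minus strand, 1356 bp away). The table gives F10D2.10 a width of 4899 bp, while its exons cover 1066 bp in WBcel235, and its counts were 1.21 to 1.27 times those of fat-7 in fed and 1.52 to 2.23 times in fasted libraries. Whether the F10D2.10 counts include reads of fat-7 was not tested.

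For fat-6 the nearest genes under both scalings were gob-1, the trehalose-6-phosphate phosphatase (r = 0.989 by total counts), and ZK896.5 (r = 0.981). gob-1 was also nearest to fat-5 by total counts (r = 0.992), followed by F52B11.2 (r = 0.991). It fell from 28.5 ± 6.24 to 6.56 ± 0.865 RPM (SD). The other leading genes changed with the scaling. By total counts they were ahcy-1, the S-adenosylhomocysteine hydrolase, as the next for fat-7 (r = 0.990), Y43F8B.9 (r = 0.990) and pcyt-1, an enzyme of phosphatidylcholine synthesis (r = 0.989), for fat-1, kpc-1, a proprotein convertase (r = 0.995), and rnf-126 (r = 0.992) for fat-2, F15E6.6 and F09G2.1 (both r = 0.998) for fat-3, and svh-2, a receptor tyrosine kinase (r = 0.994), and F42G2.2 (r = 0.979) for fat-4. Of these, F15E6.6 remained among the top 2 for its member with TMM scaling.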

How the data were processed

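RNA of dissected intestines was amplified as full-length cDNA and sequenced in 4 fed and 4 fasted libraries. The authors trimmed the reads, aligned them to the ce10 genome with QuasR, kept uniquely mapped reads and counted them per gene over WormBase exons in the same orientation. The deposited values are raw counts, and the deposited table also holds a gene width in base pairs (another number, used only for reads per kb). The chemistry is not stated to keep the strand. PCR copies cannot be told from independent molecules, and no spike-in was used here. The labels call the replicates independent biological replicates. One label speaks of auxin plates, which the study's methods do not give for this experiment.

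Columns were matched to samples by title, with 0 unmatched. RPM are counts per 1000000 counts of a library. Genes were tested with edgeR 4.0.16 (quasi-likelihood, group only, total counts as library size) in R 4.3.3 after filterByExpr (minimum count 10, total 15). P values were adjusted by Benjamini-Hochberg over 7379 genes, and calls needed a fold change over 1.5 at an FDR under 0.01. Code was tested on simulated data. Alternatives were TMM factors, totals without vitellogenins, DESeq2 1.42.0, other filters, a replicate block and each library left out. The alternatives without fasted libraries 1 and 4 and with WBcel235 exon lengths were chosen after seeing the data. Positions are from the Ensembl annotation of WBcel235, and nothing was converted between builds. Named genes were the 7 members, the pathway lists and the 2 genes most correlated with each member (log2(RPM + 0.5)). The members and lists were chosen with earlier results of these data known.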

Additional observations from a re-analysis of the deposited data

Results flagged for a closer look

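The fat-7 level of fed library 2 was 30.5 RPM, while the other 3 fed libraries lay between 61.3 and 67.0 RPM. Its gap to the nearest library was 0.843 of the whole fed range (Dixon's criterion at the 95% level). Chance alone flags about 1 in 20 such groups, and 18 groups were examined. The same library was also lowest among fed libraries for fat-1, fat-2, fat-5 and fat-6.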

How the results depend on the processing

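The calls of fat-1, fat-5, fat-6 and fat-7 as lower held in all 18 alternatives each, which include the fits without fasted libraries 1 and 4. With TMM factors, DESeq2 with its own size factors, the replicate block with TMM factors and TMM without fasted libraries 1 and 4, in this order, the log2 fold change of fat-2 turned to -0.37, -0.36, -0.37 and -0.44, that of fat-4 to -0.27, -0.27, -0.29 and -0.21, and that of fat-3 shrank to 0.52, 0.52, 0.51 and 0.59, none of them called. The members called higher were then 0 in each, the pathway genes called lower 18, 19, 18 and 16, and those called higher 3, 4, 2 and 1. These fits held 7379, 16629, 7379 and 7649 genes. The 16629 of DESeq2 are all genes with at least 1 count, so that its shares are not like those of the others. Of them 1585, 1736, 1502 and 1338 were called lower and 1448, 1828, 1316 and 943 higher. Without vitellogenins in the total, fat-2 (0.44) and fat-4 (0.54) were no longer called, which left 1 member higher, against 44.7% of all genes tested. All of these scalings move the median gene towards 0. The log2 of the delta-9 to polyunsaturated ratio, fasted minus fed, moved from -3.20 to -3.67 with geometric means in place of sums. Leaving out each library in turn gave -0.77 to -0.66 for fat-1, 0.61 to 0.77 for fat-2, 1.54 to 1.65 for fat-3, 0.73 to 0.89 for fat-4, -5.11 to -4.47 for fat-5, -1.52 to -1.24 for fat-6 and -3.25 to -2.70 for fat-7, with no call lost, -3.37 to -3.07 for the delta-9 ratio and -2.02 to -1.21 for the fat-7 to fat-6 ratio. The pathway genes called were then 10 lower in each case and 6 to 8 higher. Of the 7511 to 7948 genes tested in these fits, 636 to 724 were called lower and 3521 to 3908 higher.

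Same-numbered fed and fasted libraries had correlations of their deviations of 0.0413, 0.0873, 0.0684 and 0.155, so that the numbers were not taken to pair the samples. The replicate block with total counts left 4 members lower and 3 higher, as without it, and the log2 fold change of fat-7 was -3.01 under it. Of all 7379 genes tested, 693 were lower and 3576 higher with this block. The 10 to 41 fasted counts of fat-5 limit the precision of its fold change.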
